A study of Mus musculus with 22 samples.

Results

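The effect of losing Clock in late night and at dawn was measured in whole kidneys on 8 arrays of a series of 22: 4 Clock knockout (KO) and 4 wild-type (WT) arrays, with 2 of each at ZT20 and 2 of each at ZT0, chosen by the time in the array title. ZT is zeitgeber time, in which lights came on at ZT0 and went off at ZT12. Wild-type and clock(-/-) mice came from crosses of clock(+/-) parents of the line made by DeBruyne and colleagues, lived for 2 weeks in 12 h of light and 12 h of dark, and spent the last 30 h in constant darkness, so no light fell at the ZT0 sampling and both genotypes shared that treatment. The deletion is present in every cell of the body, not in the kidney alone. RNA of 2 or 3 mice was pooled for an array. The labels name the left kidney as the tissue and do not give age or sex. Nothing in them says that pools came from separate litters or days, so p-values here measure the spread between these pools. Values are log2 expression per probe set. The tests covered 13967 genes, each represented by its brightest probe set with a single gene symbol.

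Clock is the basic helix-loop-helix transcription factor that pairs with Arntl (also called Bmal1), binds E-box sequences and switches on the Per, Cry and Nr1d genes. Per and Cry proteins then repress the pair, and the Nr1d repressors act back on Arntl, which closes the loop over a day. Dbp, Tef and Hlf, activators of the D-box sequence, and Nfil3, a repressor acting on the same sequence, carry the rhythm to output genes. In the kidney such outputs include transporters of salt, water, amino acids and organic ions along the tubule, and enzymes of the proximal tubule that modify drugs, steroids and lipids. In wild-type kidney Arntl peaks around the end of the night, when most targets of the Clock and Arntl pair are near their trough.

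The arrays were alike in scale, with medians from 5.89 to 6.002 log2 and correlations between arrays of 0.978 to 0.996 over the genes tested. The main component of variation (47.2%) placed the 4 WT arrays at -21.55 to -2.69 and 3 of the KO arrays at 12.5 to 16.5. WT pool 2 at ZT20 lay farthest out, at -21.55, with the other WT arrays at -7.95 to -2.69. KO pool 2 at ZT0 lay at -4.71, among the WT arrays, and correlated best with WT pool 2 at ZT0. In each group pool 2 lay below pool 1 on this component. Both KO pools at ZT20 stood apart from the other 6 arrays on genes known for a sex difference in kidney. Slco1a1, an organic anion transporter of male mouse kidney, read 6.30 and 5.18 there, against 8.15 and 9.60 in KO at ZT0 and 9.92 to 10.54 in WT. The Y-linked genes Kdm5d, Eif2s3y and Uty had differences of 0.02 to 0.17 between genotypes, and none of the 3 was called. Their mean level was 8.28 and 8.19 in the KO pools at ZT20 and 8.04 to 8.37 on the other 6 arrays. Tissue identity fitted the label, since proximal tubule markers averaged 12.08 to 12.22 on every array. Results are therefore given also without the KO pools at ZT20, which leaves the ZT0 difference, and without KO pool 2 at ZT0. WT pool 2 at ZT20 and the other arrays of these times were left out 1 at a time as well.

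Late night and dawn together, with time as a covariate, gave 108 genes that differed between genotypes at a Benjamini-Hochberg adjusted p under 0.05 in limma, 64 higher and 44 lower in KO, which is 0.773% of the genes tested. The largest rise was in the amino acid transporter Slc7a12 and the largest fall in the glucuronosyltransferase Ugt2b38. Of the 108, 19 differed by 1 log2 unit or more, 7 of them higher and 12 lower, and the smallest called difference was 0.32. In all 108 genes the KO pools lay on the same side of the WT pools without overlap at ZT20 and again at ZT0. The background for that pattern was 14.2% of all genes, 9.29% with KO above and 4.90% with KO below, and the joint fit draws on the same values. At the edge of the threshold, Nrarp (0.40 ± 0.07 SE), Nlrc4 (-0.83 ± 0.15) and Kynu (0.88 ± 0.16) were just inside, and Tspan15 (0.37 ± 0.07), Pgm5 (0.55 ± 0.10) and Prdm8 (-0.45 ± 0.08) just outside.

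The number of calls moved with the pools used. With pool number as a block, 215 genes were called (1.54%, and 0.974% with KO higher), the 108 among them, and 19.8% of all genes had an unadjusted p under 0.05. Within pool 1 alone 45 genes were called, and within pool 2 alone 0 were called in limma, with 525 at an unadjusted p under 0.05. Without KO pool 2 at ZT0 the count was 447. It was 66 without WT pool 2 at ZT0, 37 without WT pool 2 at ZT20, 28 without WT pool 1 at ZT0 or KO pool 1 at ZT20, 25 without KO pool 2 at ZT20, and 23 without KO pool 1 at ZT0 or WT pool 1 at ZT20. Without both KO pools at ZT20 it was 2, namely Ugt2b38 and Nat8f5, with 4.64% of all genes at an unadjusted p under 0.05. In every one of these fits all 108 genes had the same sign as in the joint fit, and the fits share arrays. The pools of these genes lay apart at both times, so the sign was fixed in advance and adds no support.

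**Figure D1:**
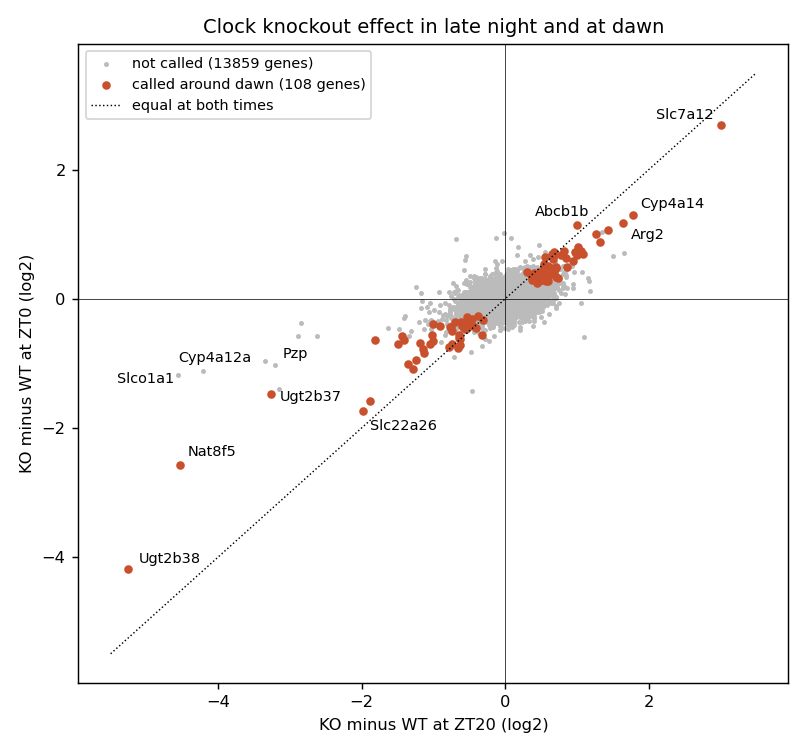
KO minus WT difference in log2 at ZT20 (horizontal) and at ZT0 (vertical) for 13967 genes, with the 108 genes called around dawn in red and a dotted line of equal size at both times. The 108 lie at the upper right and lower left, and 96 of them are farther from 0 at ZT20 than at ZT0.

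The probe set of Clock itself (10530733) did not separate the genotypes at these times. It read 9.06 and 9.01 in WT and 8.96 and 9.11 in KO at ZT20, and 9.16 and 9.10 in WT and 9.02 and 9.002 in KO at ZT0. The groups overlapped at ZT20, KO lay below WT at ZT0, and the joint difference was -0.06 ± 0.06 (adjusted p = 0.652). Which part of the gene was deleted is not named in the labels, and the probes may lie outside it, so the level is no check of the genotype labels.

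Around dawn 0 of 18 measured clock activators, repressors and D-box factors were called in limma, and 0 with the pool block. At an unadjusted p under 0.05, 3 were higher and 3 lower in KO, a larger share than the 15.7% of all genes at that level (9.67% higher and 6.06% lower). Over ZT4 to ZT16, on the other 14 arrays, 4 of the same genes were called higher and 6 lower in KO, where 1.75% of all genes were called, 1.08% higher and 0.673% lower. The median size of their difference was 0.14 log2 around dawn and 0.44 over ZT4 to ZT16, and for all genes tested it was 0.09 and 0.06.

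Arntl, the partner of Clock, read 8.36 and 8.19 in WT and 8.63 and 8.64 in KO at ZT20, and 8.41 and 8.47 in WT and 8.41 and 8.31 in KO at ZT0. KO was above WT at ZT20 and overlapped it at ZT0, and the joint difference was 0.14 ± 0.09 (adjusted p = 0.485). At ZT8 the same gene read 5.58 in the 1 WT pool and 7.86 and 7.04 in KO, and at ZT12 it read 5.69 and 5.58 in WT and 8.20 and 7.91 in KO. WT Arntl was thus far below KO in the middle of the day and near it by late night. The other activators Rora (-0.21 ± 0.07) and Arntl2 (-0.07 ± 0.08) were not called either.

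Among the repressors, Cry1 came closest to the threshold. It read 7.47 and 7.51 in WT against 7.61 and 7.67 in KO at ZT20, and 6.90 and 6.92 in WT against 7.27 in both KO pools at ZT0. KO lay above WT without overlap at both times, by 0.26 ± 0.06 (adjusted p = 0.106). Nr1d1, the Rev-erb repressor of Arntl, read 7.19 and 7.21 in WT and 7.58 and 7.40 in KO at ZT20, and 8.29 and 8.47 against 8.71 and 8.49 at ZT0. It was above WT in every KO pool of either time, and differed by 0.25 ± 0.08 between genotypes (adjusted p = 0.172). Per1 (0.18 ± 0.06) and Cry2 (0.27 ± 0.13) had positive differences, Per3 (-0.30 ± 0.11) and Per2 (-0.13 ± 0.11) negative ones, and those of Nr1d2, Bhlhe40, Bhlhe41 and Ciart lay between -0.09 and 0.05. Bhlhe41 was dim, at 4.73 to 5.28 around dawn, near the mean of 5.21 log2 that a gene needed to be tested. Cry2 differed by -0.04 at ZT20 and 0.58 at ZT0, where it read 6.79 and 7.17 in WT and 7.50 and 7.62 in KO. The D-box factors Tef (-0.52) and Hlf (-0.48) were lower in KO at ZT20 without overlap, uncalled there with adjusted p of 0.176 and 0.112, and had differences of -0.02 and 0.05 at ZT0.

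**Figure D2:**
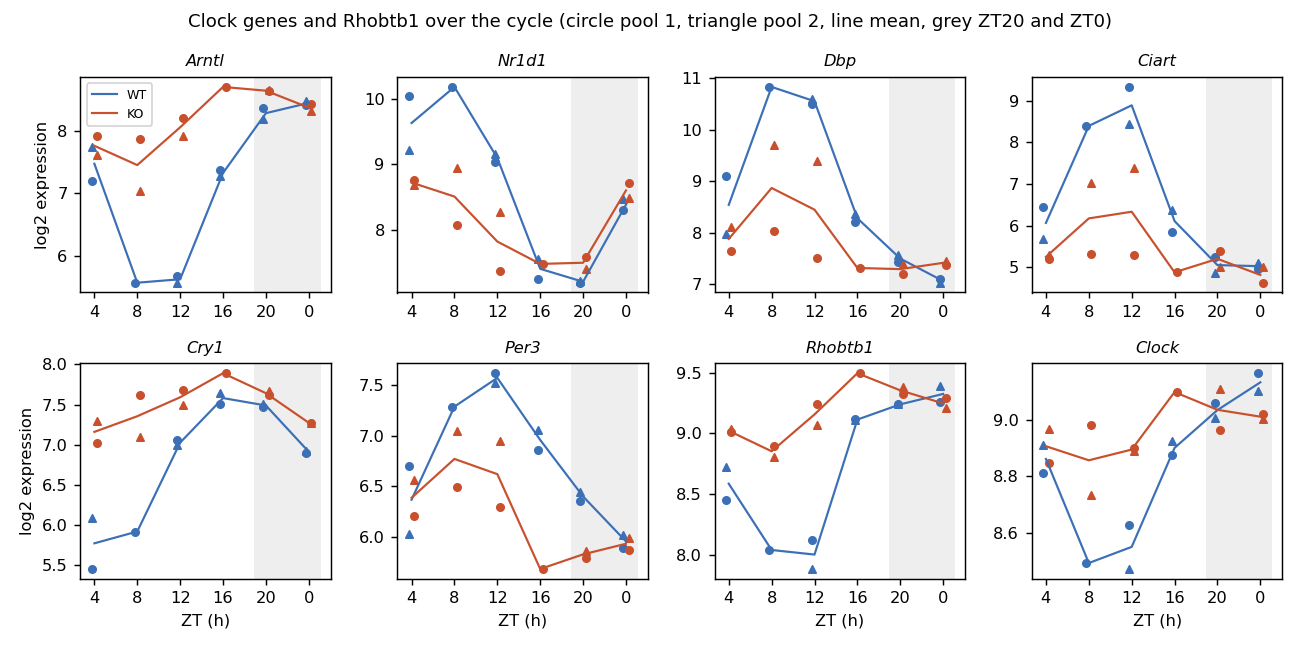
Log2 expression of 7 clock or clock-linked genes and of Clock (vertical) at 6 times of day in hours (horizontal, with ZT0 drawn at the right end), WT in blue and KO in red, 1 point for each array and lines through the means. In the grey zone of ZT20 and ZT0 Arntl differs between genotypes by 0.36 and -0.07, and at ZT8 and ZT12 by 1.87 and 2.42.

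Promoter sequences from RefSeq (GRCm38.p6) were available for 11078 of the 13967 genes and for 16 of the 18 clock genes. Windows ran from 250 bases before to 50 after each annotated start, and a gene with several starts counted once if any window held the motif. The canonical E-box CACGTG, which reads the same on both strands, was present in 5 of 16 clock genes (31.2%: Bhlhe41, Ciart, Cry1, Per1 and Tef) and in 11.3% of all genes. It was present in 4 of 46 genes that rose around dawn (8.70%) and 4 of 34 that fell (11.8%). The 200 bases before the start are shown for a clock gene with 3 copies, Ciart (chr3:95882229-95882428, minus strand), for Cry1 (chr10:85185055-85185254, minus strand) and for Slc51a (chr16:32487880-32488079, minus strand), a gene that fell around dawn and also has 3 copies. Capitals mark the E-box.
Ciart: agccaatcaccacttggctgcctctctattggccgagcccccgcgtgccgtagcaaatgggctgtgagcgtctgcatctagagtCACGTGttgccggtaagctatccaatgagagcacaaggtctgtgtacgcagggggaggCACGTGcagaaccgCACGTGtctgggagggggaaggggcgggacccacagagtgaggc
Cry1: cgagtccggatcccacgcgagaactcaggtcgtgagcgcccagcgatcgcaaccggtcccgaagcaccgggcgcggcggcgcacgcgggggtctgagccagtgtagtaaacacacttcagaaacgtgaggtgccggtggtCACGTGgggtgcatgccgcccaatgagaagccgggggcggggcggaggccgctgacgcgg
Slc51a: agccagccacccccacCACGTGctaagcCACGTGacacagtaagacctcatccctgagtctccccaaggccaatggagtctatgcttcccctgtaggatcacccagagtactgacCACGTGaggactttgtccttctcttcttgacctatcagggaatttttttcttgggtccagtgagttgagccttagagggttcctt

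Ciart, the repressor with 3 of these elements, read 4.86 to 5.25 in WT and 4.63 to 5.40 in KO around dawn, and the pools overlapped at both times. In WT these were the lowest levels of the cycle. They lie near the limit of 5.21 log2 for testing a gene, so a still lower KO level might not show. Over ZT4 to ZT16 its difference was -1.70 ± 0.32 (limma adjusted p = 0.0119). Slc51a, the alpha subunit of the organic solute transporter that moves bile acids and steroid conjugates across the basolateral membrane, fell around dawn. It read 8.73 and 8.75 in WT and 7.28 and 7.31 in KO at ZT20, and 8.55 and 8.29 in WT and 7.78 and 7.91 in KO at ZT0. KO was below WT at both times, by -1.01 ± 0.16 jointly (adjusted p = 0.0306), -1.44 at ZT20 and -0.58 at ZT0. A motif match is a description of the letters and shows no binding.

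Clock output genes likewise gave 0 calls among 13 measured, with 3 higher and 5 lower at an unadjusted p under 0.05 (all genes, 9.67% and 6.06%). The glycogen synthase Gys2 had the largest difference, -0.56 ± 0.11 (adjusted p = 0.0552), and passed with the pool block (adjusted p = 0.0308). It read 8.30 and 8.61 in WT and 7.85 and 7.72 in KO at ZT20, and 8.54 and 8.72 against 8.01 and 8.37 at ZT0, without overlap. Ddc, which makes dopamine from DOPA in the proximal tubule, was 0.57 higher in KO at ZT20 (adjusted p = 0.0225) and 0.12 higher at ZT0, and its joint difference of 0.34 ± 0.10 was not called. Alas1, the entry enzyme of heme synthesis (-0.35 ± 0.10), and Tspan4 (-0.32 ± 0.08) were below WT without overlap at both times and were not called. Ppard, the lipid-sensing nuclear receptor, differed by 0.04 at ZT20 and -0.46 at ZT0, and Rhobtb1 and Ypel2 by 0.02 and -0.08 jointly.

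Amino acid metabolism had 5 of 18 measured genes called higher and 0 lower (all genes, 0.458% and 0.315%), and its median difference was 0.23 log2 against 0.02 for all genes. Slc7a12, a transporter of the Slc7 amino acid family, read 8.53 and 7.20 in WT and 10.98 and 10.77 in KO at ZT20, and 6.93 and 9.08 in WT and 10.71 and 10.67 in KO at ZT0. The KO pools were uniformly high and the WT pools scattered over 2 log2 units, with no overlap. The difference was 2.85 ± 0.42, or 7.20-fold (adjusted p = 0.0257). In whole tissue, more cells of a type and more RNA per cell cannot be told apart, here or in the results that follow.

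Arg2, the mitochondrial arginase that splits arginine into urea and ornithine, read 5.92 and 5.73 in WT and 7.54 and 7.40 in KO at ZT20, and 5.94 and 6.03 against 7.29 and 7.04 at ZT0. Every KO pool was more than 1 log2 unit above every WT pool, and the joint rise was 1.41 ± 0.11, or 2.67-fold (adjusted p = 0.00186). Hao2, a peroxisomal oxidase of 2-hydroxy acids, read 10.30 and 10.14 against 11.59 and 11.38 at ZT20 and 10.52 and 10.85 against 11.70 and 11.66 at ZT0, a rise of 1.13 ± 0.10. Kynu, kynureninase of the tryptophan pathway, was higher in KO by 0.88 ± 0.16 at the edge of the threshold. At ZT0 its KO pools read 8.69 and 8.22 and its WT pools 7.50 and 8.03, close but not overlapping. Slc6a19, the main apical transporter of neutral amino acids, rose by 0.50 ± 0.09 (adjusted p = 0.045), and was the 1 gene of the 108 with the opposite sign over ZT4 to ZT16 (-0.05). The other 13 measured genes were not called, among them Hpd (0.65 ± 0.16), Bhmt (0.46 ± 0.15) and Agxt2 (0.41 ± 0.08).

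Further large rises were in single genes of lipid mediators and efflux pumps, lists that also held falls. Cyp4a14, a fatty acid omega-hydroxylase, read 9.63 and 9.51 in WT and 11.47 and 11.23 in KO at ZT20, and 9.70 and 9.64 against 11.23 and 10.72 at ZT0, a rise of 1.54 ± 0.13 or 2.91-fold (adjusted p = 0.00186). Pla2g7, the plasma-type acetylhydrolase that inactivates platelet-activating factor, rose by 1.25 ± 0.10, from 8.07 to 8.53 in the 4 WT pools to 9.34 to 9.65 in the 4 KO pools. Both genes therefore had a gap between genotypes wider than the range within either. Ephx2, the soluble epoxide hydrolase of epoxy fatty acids, fell by 0.53 ± 0.09 on the log2 scale (adjusted p = 0.0345). Of 13 measured eicosanoid enzymes, 1 was thus called higher and 1 lower (all genes, 0.458% and 0.315%), and the other 11 were not called. At an unadjusted p under 0.05, 3 were higher and 5 lower (all genes, 9.67% and 6.06%). At ZT20 alone 0 were called higher and 4 lower (all genes, 0.709% and 1.04%). With the pool block the microsomal epoxide hydrolase Ephx1 (0.35 ± 0.08) was called too (adjusted p = 0.0331).

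Of 17 organic ion transporters and drug efflux pumps, 2 rose and 3 fell (all genes, 0.458% and 0.315%). Abcb1b, a P-glycoprotein, read 5.99 and 6.31 in WT and 7.31 and 7.002 in KO at ZT20, and 6.15 and 6.43 against 7.31 and 7.54 at ZT0. It rose by 1.07 ± 0.11 (adjusted p = 0.00325), and its difference was as large at ZT0 (1.14) as at ZT20 (1.01). Its close relative Abcb1a differed by 0.20 ± 0.10 and was not called. Abcc3, an efflux pump of organic anion and glucuronide conjugates, read 5.84 and 5.77 in WT and 7.28 and 6.97 in KO at ZT20, and 5.67 and 5.75 against 6.59 and 6.58 at ZT0. It rose by 1.10 ± 0.10 (adjusted p = 0.00309) and was 1 of 4 genes called at ZT0 alone, also with the pool block (adjusted p = 0.0472). On the falling side, the organic anion transporter Slc22a26 read 8.04 and 8.13 in WT and 6.79 and 5.42 in KO at ZT20, and 8.15 and 7.63 against 6.13 and 6.18 at ZT0. KO was lower in every pool, by -1.86 ± 0.25 (adjusted p = 0.0167). Slc22a7 (-0.72 ± 0.12), which carries organic anions, and Slco1a6 (-0.66 ± 0.11), of the organic anion transporting polypeptides, fell too. Slc22a29 had a difference of 1.18 ± 0.28 that was called with the pool block (adjusted p = 0.0208) and not without it (adjusted p = 0.0992).

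The remaining rises among the 12 largest were in Slc23a3, a relative of the vitamin C transporters (0.91 ± 0.09), Rdh16f2, of the retinol dehydrogenase family (0.90 ± 0.12), Gpc3, a heparan sulfate proteoglycan of the cell surface (0.85 ± 0.09), and Cbr1, a carbonyl reductase (0.84 ± 0.12). Slc23a3 read 6.44 to 6.74 in the WT pools and 7.27 to 7.63 in the KO pools and was called at ZT20 and at ZT0 on its own, but not at ZT0 with the pool block (adjusted p = 0.0653). Gpc3 read 7.86 to 8.28 in WT and 8.82 to 9.07 in KO. In neither gene did any KO pool reach down to the WT range.

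**Figure D3:**
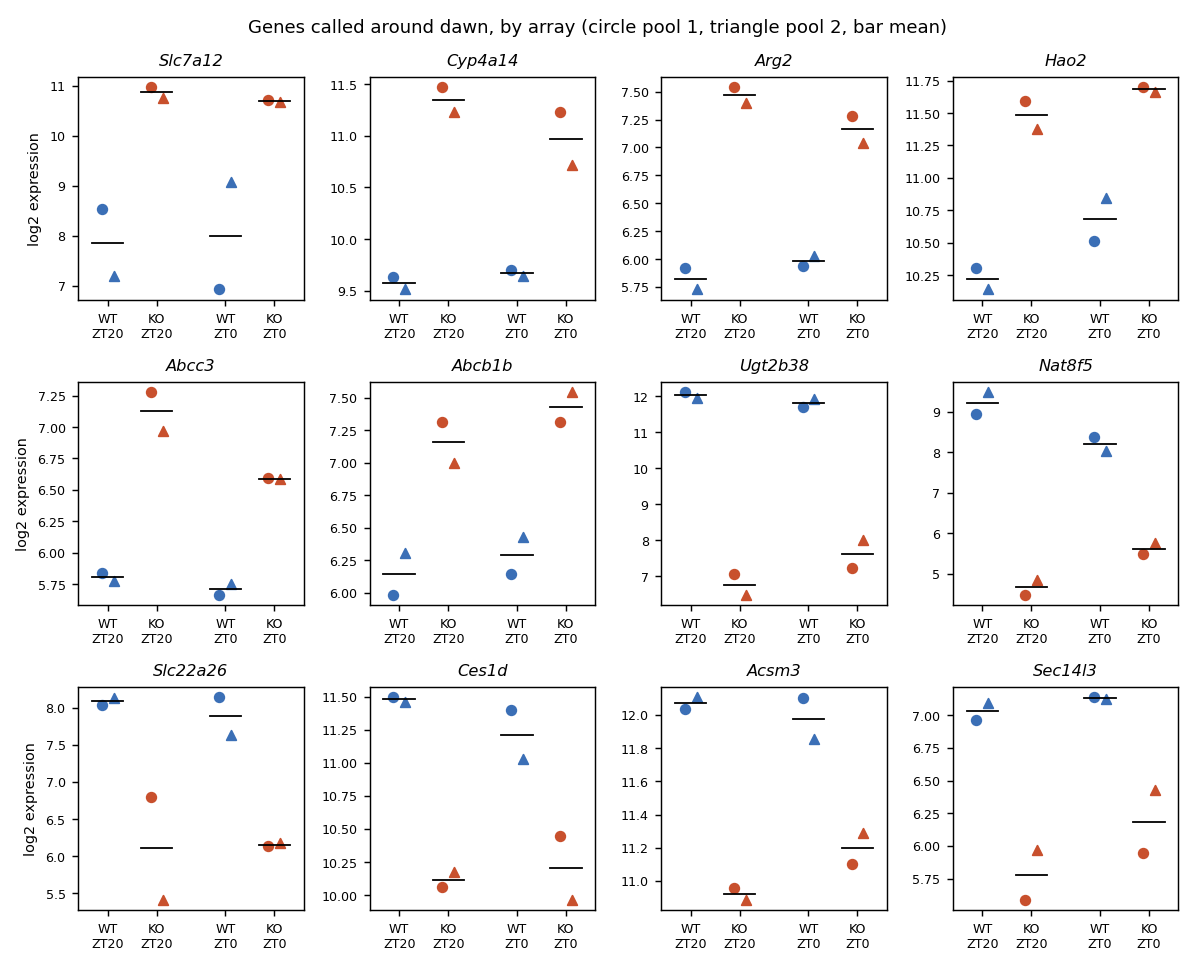
Log2 expression (vertical, with a scale of its own in each panel) of 6 genes that rose and 6 that fell around dawn, by genotype and time (horizontal), WT blue and KO red, circles for pool 1, triangles for pool 2 and bars for the mean of 2 pools. The genotypes do not overlap at either time in any panel, and WT Slc7a12 varies from 6.93 to 9.08.

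Conjugating enzymes held the deepest falls, with 6 of 16 measured genes called lower and 1 higher (all genes, 0.315% and 0.458%), and a median difference of -0.74 log2. Ugt2b38 (probe set 10531073), a UDP-glucuronosyltransferase, which adds glucuronic acid to steroids and drugs, read 12.12 and 11.94 in WT and 7.05 and 6.50 in KO at ZT20, and 11.71 and 11.92 against 7.24 and 8.02 at ZT0. The transcript was among the bright ones in WT, and all KO pools were at least 3 log2 units lower, by -4.72 ± 0.24 (adjusted p = 0.000104), a 26.4-fold difference. Ugt2b37 read 10.75 and 10.45 against 7.70 and 6.99 at ZT20, and 10.55 and 10.64 against 8.34 and 9.90 at ZT0. KO pool 2 at ZT0 thus came within 1 log2 unit of WT, and the joint difference was -2.37 ± 0.41 (adjusted p = 0.0446). Ugt2b5 fell by -1.74 ± 0.18, whereas Ugt2b34 rose by 0.78 ± 0.08 (adjusted p = 0.00309).

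These 4 Ugt2b genes lie on chromosome 5, 10.7 to 11.2 Mb from Clock in GRCm38.p6, and another called gene, Stbd1 (-0.62), a glycogen-binding protein, lies 16.4 Mb away. Within 20 Mb of Clock, 1 of 127 genes tested was called higher and 4 lower (all genes, 0.458% and 0.315%). Within 10 Mb 0 of 56 were called (all genes, 0.773%), though differences there reached 1.09. Of the 56, 9 were higher and 4 lower at an unadjusted p under 0.05 (all genes, 9.67% and 6.06%). An effect of the lost gene and one of flanking sequence carried along from the line's origin cannot be told apart for these genes. Members of the Ugt2b, Nat8, Slc22a and Cyp4a families are also close copies of each other, and probes may be shared among them.

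Nat8f5 (probe set 10545874), an N-acetyltransferase-like gene on chromosome 6, read 8.93 and 9.48 in WT and 4.49 and 4.86 in KO at ZT20, and 8.38 and 8.03 against 5.49 and 5.75 at ZT0. It fell by -3.56 ± 0.35 (adjusted p = 0.00309), a difference of 11.8-fold. It was called at ZT20 and at ZT0 on its own, but not at ZT0 with the pool block (adjusted p = 0.0638). Its relative Nat8, which acetylates cysteine conjugates on the way to mercapturic acids, read 10.53 and 10.63 against 8.58 and 8.97 at ZT20 and 10.28 and 10.18 against 9.48 and 9.71 at ZT0, a fall of -1.22 ± 0.21. Nat8f2 (-0.86 ± 0.21) was not called and Nat8f1 differed by -0.01 ± 0.14. The carboxylesterase Ces1d read 11.50 and 11.46 in WT and 10.06 and 10.18 in KO at ZT20, and 11.40 and 11.03 against 10.45 and 9.97 at ZT0, by -1.18 ± 0.13. Ces1g (-1.73 ± 0.42) and Ces1f (-0.63 ± 0.18) were called at ZT20 and not in the joint fit.

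Several other enzymes and carriers fell in the joint fit, with no call at ZT0 alone. Acsm3, a medium-chain acyl-CoA synthetase, read 12.04 and 12.11 in WT and 10.96 and 10.89 in KO at ZT20, and 12.10 and 11.85 against 11.10 and 11.29 at ZT0, by -0.97 ± 0.10 (adjusted p = 0.00309). Sec14l3, a lipid-binding protein of the Sec14 family, read 6.96 to 7.14 in the 4 WT pools and 5.59 to 6.42 in the 4 KO pools, by -1.10 ± 0.13 (adjusted p = 0.00606). Ldhd, the mitochondrial D-lactate dehydrogenase, read 11.14 and 11.38 against 9.86 and 9.68 at ZT20, and 11.11 and 11.19 against 10.08 and 10.82 at ZT0. Its KO pool 2 at ZT0 lay nearest to WT, and the joint difference was -1.09 ± 0.19. Slc46a3, a transporter of the lysosome membrane (-1.02 ± 0.16), fell as well. Smcp, known from the mitochondrial sheath of sperm, read 6.73 to 7.14 in WT and 5.70 to 5.94 in KO, a fall of -1.19 ± 0.10 (adjusted p = 0.00186).

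Promoters of the falling genes were searched also for the D-box TTATGTAA on both strands, the element of Dbp, Tef, Hlf and Nfil3. It was found in 5 of 34 genes that fell (14.7%: Acsm3, Gm15348, Nlrc4, Sec14l3 and Slc22a26), in 0 of 46 that rose, in 1 of 16 clock genes (Per3) and in 0.686% of all genes. For AGGTCA, the core site of nuclear receptors such as Nr1d1 and Rora, the shares were 29.4%, 15.2%, 31.2% and 15.6%, and for the E-box variant CACGTT 8.82%, 4.35%, 18.8% and 6.18%. The 10 falling genes with AGGTCA include the close copies Ugt2b5, Ugt2b37 and Ugt2b38, which lie together on chromosome 5 and are not independent cases. The 200 bases before the start are shown for Acsm3 (chr7:119760723-119760922, plus strand) and Sec14l3 (chr11:4064653-4064852, plus strand), which fell in every pool, and for Per3 (chr4:151044666-151044865, minus strand), which read 6.36 and 6.45 in WT and 5.79 and 5.86 in KO at ZT20 and 5.895 and 6.02 against 5.88 and 5.99 at ZT0. Capitals mark the D-box, which lies 63, 56 and 158 bases before the start.
Acsm3: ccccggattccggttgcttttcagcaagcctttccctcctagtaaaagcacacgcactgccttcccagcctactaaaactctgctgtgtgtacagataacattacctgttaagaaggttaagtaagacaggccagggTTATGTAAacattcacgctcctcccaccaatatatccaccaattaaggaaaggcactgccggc
Sec14l3: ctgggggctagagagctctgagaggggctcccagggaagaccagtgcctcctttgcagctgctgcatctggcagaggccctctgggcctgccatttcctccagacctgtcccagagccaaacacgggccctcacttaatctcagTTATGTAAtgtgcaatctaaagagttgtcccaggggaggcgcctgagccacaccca
Per3: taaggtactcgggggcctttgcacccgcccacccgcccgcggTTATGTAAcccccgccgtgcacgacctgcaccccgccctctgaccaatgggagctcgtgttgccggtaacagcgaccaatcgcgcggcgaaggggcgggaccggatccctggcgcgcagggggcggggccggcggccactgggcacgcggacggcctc

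The D-box factors themselves were not called around dawn, as given above, and Dbp read 7.43 and 7.58 in WT and 7.20 and 7.40 in KO at ZT20 and 7.10 and 7.03 against 7.38 and 7.45 at ZT0. Over ZT4 to ZT16 Dbp was lower in KO by -1.42 ± 0.29 and Tef by -0.50 ± 0.11, with limma adjusted p of 0.0208 and 0.0311. The motif counts are a description, and a relation between these factors and the falls was not tested.

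Genes known for a sex difference in mouse kidney had the widest gap between the times. Of 14 measured, 2 rose (Slc7a12 and Cyp4a14) and 2 fell (Acsm3 and Odc1) in the joint fit, with 11 lower at an unadjusted p under 0.05 (all genes, 6.06%). Slc7a12 and Cyp4a14 are not among the members usually higher in males, unlike the other members, and the sex of the pools is not labelled. At ZT20 alone 9 of the 14 were called lower, where 1.04% of all genes were. Their median difference was -2.05 log2 at ZT20, -0.52 at ZT0 and -0.36 over ZT4 to ZT16. Slco1a1 (-2.87 ± 0.64, adjusted p = 0.0845), the arachidonic acid hydroxylases Cyp4a12a (-2.67 ± 0.65) and Cyp4a12b (-2.16 ± 0.51), the oxysterol hydroxylase Cyp7b1 (-2.27 ± 0.48) and the protease inhibitor Pzp (-2.11 ± 0.45) had large joint differences and were not called, and their KO pools at ZT0 lay far above those at ZT20. Cyp7b1 differed by -3.15 at ZT20 and -1.40 at ZT0, and Pzp, called with the pool block (adjusted p = 0.0486), by -3.20 and -1.02. Odc1, the ornithine decarboxylase that androgen induces in mouse kidney, was steadier, at 11.71 and 11.78 in WT and 11.34 and 11.40 in KO at ZT20 and 11.66 and 11.73 against 11.42 and 11.43 at ZT0, a fall of -0.32 ± 0.06. Kap, the androgen-regulated protein of the proximal tubule, differed by -0.06 ± 0.06.

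Mean levels of other cell types were compared beside this spread. Proliferation genes averaged 5.75 and 6.98 in the KO pools and 6.39 and 5.72 in the WT pools at ZT20, and 6.57 and 5.52 in KO and 6.01 and 5.65 in WT at ZT0, and stromal markers ranged from 8.30 to 9.27. Pools of 1 group thus differed from each other as much as the genotypes did, and 0 of 7 and 0 of 9 were called in limma, none at an unadjusted p under 0.05. Proximal tubule markers had 0 of 10 called, 2 higher and 3 lower at an unadjusted p under 0.05 (all genes, 9.67% and 6.06%). Intercalated cell markers had 0 of 8 called and 6 higher at that level, thick ascending limb markers 0 of 6 with 3 higher, principal cell markers 0 of 8 with 4 higher, podocyte markers 0 of 5 with 1 higher, immune cell markers 0 of 13 with 3 lower, and adipocyte markers 0 of 6 with 1 higher. Of 9 endothelial markers, 1 was called higher and 0 lower (all genes, 0.458% and 0.315%). At an unadjusted p under 0.05, 3 of them were higher and 2 lower. The called one was Plvap, the diaphragm protein of fenestrated capillaries, which rose from 9.75 and 9.64 to 10.16 and 10.27 at ZT20 and from 9.67 and 9.90 to 10.12 and 10.18 at ZT0 (0.44 ± 0.07, adjusted p = 0.0359). Plvap was called in 2 of the 8 fits that each left out 1 array. The part of tissue make-up in the gene differences was not tested.

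Of 15 acid-base genes measured, 2 rose and 0 fell (all genes, 0.458% and 0.315%). At an unadjusted p under 0.05, 12 were higher (9.67% of all genes were), and 11 had KO above WT at both times without overlap, where 9.29% of all genes did. The median difference was 0.28 log2, and 0.17 at ZT0 alone. Slc38a3, the glutamine transporter that feeds ammonia production, read 8.54 and 8.73 in WT and 9.32 and 9.27 in KO at ZT20, and 8.61 and 8.83 against 9.28 and 9.38 at ZT0, a rise of 0.64 ± 0.07 (adjusted p = 0.00623). Rhbg, an ammonia transporter of the collecting duct, rose by 0.34 ± 0.06. The proton pump subunits Atp6v1b1 (0.28 ± 0.07) and Atp6v0d2 (0.33 ± 0.09) and the anion exchanger Slc4a1 (0.28 ± 0.07) were not called jointly, and at ZT20 Slc4a1 and the intercalated cell factor Foxi1 (0.52, adjusted p = 0.0136) were. The 5 of these genes that also mark intercalated cells (Slc4a1, Slc4a9, Slc26a4, Atp6v1b1 and Atp6v0d2) had differences from 0.22 to 0.33. Atp4a (0.34 ± 0.09) was called with the pool block alone (adjusted p = 0.0449).

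Distal calcium handling and the renin-angiotensin system each had 2 rises and 0 falls, among 12 and 6 genes measured (all genes, 0.458% and 0.315%). Trpv5, the apical calcium channel of the distal tubule, read 8.29 and 8.19 in WT and 8.77 and 8.80 in KO at ZT20, and 8.26 and 8.34 against 8.83 and 8.66 at ZT0, a rise of 0.50 ± 0.07 (adjusted p = 0.0137). Slc8a1, the sodium-calcium exchanger of the opposite membrane, rose by 0.42 ± 0.08 (adjusted p = 0.0466), and the buffer protein Calb1 (0.39 ± 0.12) was not called. Agt, angiotensinogen, read 9.27 and 9.19 in WT and 9.77 and 9.59 in KO at ZT20, and 9.53 and 9.36 against 9.87 and 9.73 at ZT0, a rise of 0.40 ± 0.07 (adjusted p = 0.0473). Mme, neprilysin, a peptidase of the brush border, rose by 0.35 ± 0.06, whereas Ace (-0.27 ± 0.07) and Agtr1a (0.20 ± 0.06) were not called. In the 8 fits that each left out 1 array, Trpv5 was called in 3, Slc8a1 in 2, and Agt and Mme in 1 each. Of 9 injury and acute-phase genes, Cp (ceruloplasmin, 0.73 ± 0.12), Fgb (a fibrinogen chain, 0.71 ± 0.12) and Clu (clusterin, 0.36 ± 0.06) rose (0.458% of all genes did), and the tubular injury markers Havcr1 (-0.32 ± 0.15) and Lcn2 (0.11 ± 0.10) were not called. With 1 array left out, Cp and Fgb were called in 2 of the 8 fits and Clu in 1.

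Genes of sodium and water balance were not called around dawn, with 0 of 11 for sodium transport, 0 of 14 for regulators of distal sodium transport and 0 of 15 for water and urea in limma. At an unadjusted p under 0.05 these lists had 4, 4 and 5 higher and 0 lower genes (all genes, 9.67% and 6.06%). The epithelial sodium channel subunit Scnn1g (0.28 ± 0.05, adjusted p = 0.0556) and the phosphate transporter Slc34a3 (0.38 ± 0.08, adjusted p = 0.0618) passed with the pool block only, at 0.0426 and 0.0378. Aqp2, the vasopressin-regulated water channel, differed by -0.07 ± 0.06, and the vasopressin receptor Avpr1a by 0.38 ± 0.08. Of 19 heat shock and chaperone genes, 0 were called jointly and 6 were lower at an unadjusted p under 0.05 (all genes, 6.06%). At ZT20 3 of them, Hspa5 (-0.50), Hyou1 (-0.50) and Creld2 (-0.69), chaperones or folding factors of the endoplasmic reticulum, were called lower (all genes, 1.04%), with ZT0 differences of -0.23, -0.23 and -0.28. Fatty acid oxidation genes had 0 of 13 called and 8 lower at that level, with Angptl4 (-1.09) and Plin2 (-0.42) called lower at ZT20 (all genes, 1.04%). Glucocorticoid-responsive, cold-inducible, cholesterol synthesis, immediate early and interferon-responsive lists had 0 called among 13, 3, 12, 10 and 8 genes. At an unadjusted p under 0.05 they had 1, 0, 0, 1 and 4 higher genes and 3, 0, 3, 0 and 0 lower ones (all genes, 9.67% and 6.06%). Glucose and monocarboxylate handling had 0 of 13 called and 8 higher at that level. With the block the glucocorticoid-responsive Fkbp5 (-0.47) and the glycogen phosphorylase Pygl (0.47) were called, at adjusted p of 0.0389 and 0.0378.

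On its own, late night gave many more calls than dawn, but the difference between the times was not called for any gene. At ZT20 244 genes were called (1.75%), 99 higher and 145 lower, and at ZT0 4 were (0.0286%), Abcc3, Slc23a3 and the sulfate transporter Slc26a1 (0.58 at ZT0, 0.27 at ZT20) higher (0.0215%) and Nat8f5 lower (0.00716%), with 620 genes (4.44%) at an unadjusted p under 0.05. With the pool block only Abcc3 of the 4 was called at ZT0, and without any 1 of the ZT0 arrays, or either WT array at ZT20, none of the 4 was (adjusted p from 0.0549 to 0.979). The joint fit includes the arrays of both, and 67 of the 108 genes were also called at ZT20 and 3 at ZT0. The test of the ZT20 difference against the ZT0 difference gave 0 calls in limma, with 849 genes at an unadjusted p under 0.05 (6.08%), and 0 also when only the 8 arrays were fitted. Without KO pool 1 at ZT0 it gave 3, Cyp2j13, Nat8f2 and Sectm1b, all more negative at ZT20. Counts at ZT20 fell to 68 and 46 without KO pool 1 or 2 and to 21 without WT pool 2 at that time.

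Sizes were larger at ZT20 over the whole table. The SD of the KO minus WT difference over genes was 0.26 at ZT20 and 0.15 at ZT0, and 68.6% of all genes differed more at ZT20, as did 96 of the 108. The median size in the 108 was 0.65 at ZT20 and 0.48 at ZT0. Over all genes the differences at both times, from separate arrays, had a correlation of 0.474 and the same sign in 59.8% of genes (genes are not independent replicates, and the arrays were normalised together). Of the 244 genes called at ZT20, 217 had the same sign at ZT0, where their median size fell from 0.65 to 0.25 log2, and 154 had KO and WT pools apart in that direction (pools were apart in either direction in 53% of all genes at ZT20 and 33.9% at ZT0). Abcb1b, Fgb, Slc38a3 and Slc22a7 were of like size at the times, as given above for Abcb1b, with 0.69 and 0.73 for Fgb, 0.66 and 0.61 for Slc38a3 and -0.73 and -0.70 for Slc22a7. Nat8 (-1.81 and -0.63), Slc51a and Ldhd (-1.49 and -0.70) were smaller at ZT0.

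Set against ZT4 to ZT16, which rest on 14 other arrays, the effect around dawn differed in 2 genes (0.0143% of those tested), with 625 (4.47%) at an unadjusted p under 0.05. Arntl was 1.48 ± 0.12 higher in KO over those times and 0.14 around dawn, a difference of -1.34 ± 0.19 (adjusted p = 0.0285). Rhobtb1 was 0.70 ± 0.06 higher over those times and 0.02 around dawn, a difference of -0.68 ± 0.09 (adjusted p = 0.0285). It read 9.24 to 9.39 in WT and 9.21 to 9.39 in KO around dawn, and at ZT12 8.12 and 7.88 in WT and 9.24 and 9.07 in KO. Ypel2 (-0.83 ± 0.13, adjusted p = 0.065) and Abcc3 (0.67 ± 0.12, adjusted p = 0.0777) came next among the genes named here. Both calls were lost without either KO pool at ZT20, either WT pool at ZT20, KO pool 1 at ZT0 or WT pool 2 at ZT0, with adjusted p from 0.0723 to 0.157, and that of Arntl also without WT pool 1 at ZT0 (0.081).

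**Figure D4:**
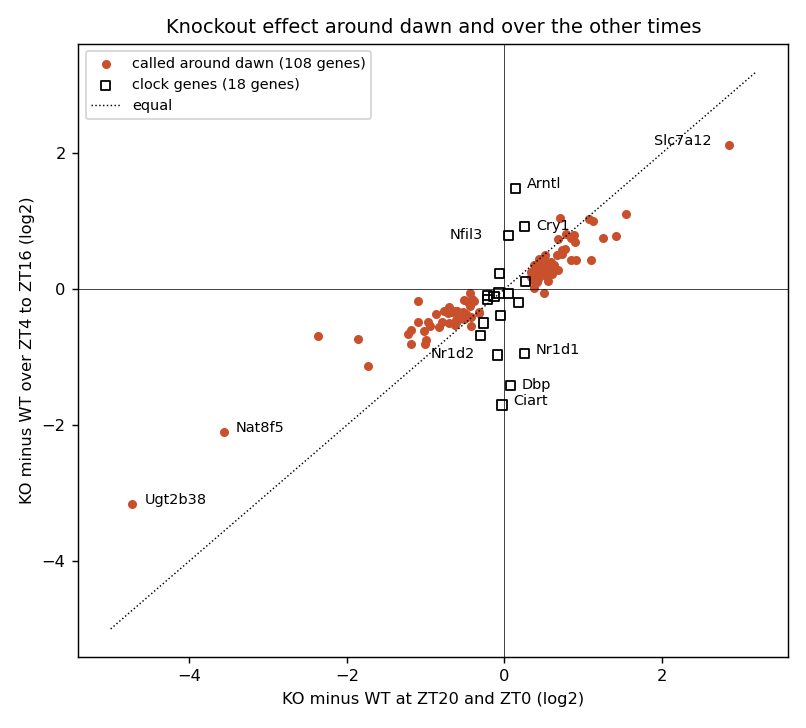
KO minus WT difference in log2 around dawn (horizontal) and over ZT4 to ZT16 (vertical) for the 108 genes called around dawn (red) and the 18 clock genes (open squares), with a dotted line of equal size. The red points follow the diagonal with smaller values on the vertical axis in 102 of 108, and the clock genes stand in a column near 0 around dawn, from -1.70 for Ciart to 1.48 for Arntl over the other times.

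In the other direction, 107 of the 108 genes had the same sign over ZT4 to ZT16. With that sign, 61 were called there and 93 had an unadjusted p under 0.05 (all genes, 1.75% and 13.2% with either sign). The share of all genes with the same sign in both windows was not counted. The median size in the 108 was 0.58 around dawn and 0.36 over the other times, and 102 of them were smaller there (they were chosen by their dawn values). Sec14l3 differed by -1.10 around dawn and -0.18 ± 0.11 over ZT4 to ZT16, a mean of -0.10, -0.33, -0.64 and, with a single KO pool at ZT16, 0.37. Its difference between the windows (-0.92 ± 0.18) was not called (adjusted p = 0.15). The values in both windows were 0.85 and 0.75 ± 0.08 for Gpc3, 1.13 and 1.004 ± 0.11 for Hao2 and 0.71 and 1.05 ± 0.11 for Fgb, and the difference between windows was called in none of these 3 genes.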

How the data were processed

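Whole-transcript Affymetrix arrays measured pooled kidney RNA. The authors deposited RMA values on a log2 scale. RMA is named in the submitters' processing notes, with its version and the probe annotation build not given in the sources used here. RMA aligns the distributions of all arrays, so a change common to most genes would not be seen. Of 35556 probe sets, 21789 had 1 gene symbol, 1621 had several and 12146 were not listed. The brightest probe set by mean over 22 arrays stood for each of 19938 genes, and 13967 at or above the 30th percentile (5.21 log2) were tested. Array number and the 2 pools a group limit precision.

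Differences were fitted in limma 3.58.1 (R 4.3.3) with moderated variances and Benjamini-Hochberg adjustment over all genes, called at an adjusted p under 0.05. The joint comparison used 8 arrays with time as a covariate. ZT20, ZT0, their difference, and dawn against the mean of ZT4 to ZT16 came from 12 group means over 22 arrays. The procedure was tested on simulated data. Members and gene lists were chosen with earlier results of these data known. Named genes are Clock, the clock lists, the 12 largest rises and falls called around dawn without overlap of pools at either time, genes called between windows, up to 4 called members of each other list, and Slco1a1. Further genes in the text are uncalled list members, or were chosen after their values were seen. Pools with the same number deviated in the same direction in all 6 pairs of groups (r over genes of 0.133 to 0.536). On the second component of variation around dawn (15.8%), pool 1 arrays lay at 1.345 to 11.94 and pool 2 arrays at -9.38 to -1.89. The labels do not say that pool numbers match across groups. No reference distribution was made for these r values, so whether the numbers pair the pools was not tested. The main fits have no pool term. Values with pool number as a block are given where they change a joint or ZT0 call of a gene in the text. At ZT20 the block gave 279 calls, 232 of them among the 244, and calls of single genes at ZT20 are given without it. Alternatives were other filters, scalings, variance models, array weights, the pool block, single pools, every probe set, and each array left out. A gene with several probe sets rests on 1 of them.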

Additional observations from a re-analysis of the deposited data

Results flagged for a closer look

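The effect of Clock loss on Arntl differed between the windows, by a test of the difference itself: around dawn minus ZT4 to ZT16 it was -1.343 log2 (limma adjusted p = 0.0285). KO exceeded WT by 0.29 at ZT4, 1.87 at ZT8, 2.42 at ZT12 and 1.37 at ZT16, and by 0.36 at ZT20 and -0.07 at ZT0. Leaving out each of the 8 arrays of ZT20 and ZT0 in turn gave -1.30 to -1.39, with adjusted p from 0.0346 to 0.157.

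Rhobtb1 was picked out by the same test, at -0.6797 log2 (limma adjusted p = 0.0285). Its differences were 0.44, 0.82, 1.16 and 0.38 at ZT4, ZT8, ZT12 and ZT16, and 0.12 and -0.08 at ZT20 and ZT0. Leaving out each of the 8 arrays of ZT20 and ZT0 in turn gave -0.647 to -0.712, with adjusted p from 0.034 to 0.157. No WT replicate exists beyond 1 pool at ZT8 and no KO replicate beyond 1 pool at ZT16, which both genes' values over ZT4 to ZT16 include. The 14 arrays of those times were not left out in turn.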

How the results depend on the processing

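All 38 called genes named by the rule kept their sign in every alternative. Their pools lay apart at both times, so only the other scalings could have changed a sign. Of the 38, 16 were called in all 8 fits that left out 1 array of ZT20 or ZT0 (those of other times were kept). These were Abcb1b, Abcc3, Acsm3, Arg2, Ces1d, Cyp4a14, Gpc3, Hao2, Nat8f5, Pla2g7, Sec14l3, Slc23a3, Slc38a3, Smcp, Ugt2b38 and Ugt2b5. The others of the 38 were called in 1 to 4 of these fits. The joint count of 108 became 51 without the filter, 181 at the 50th percentile, 83 with array medians subtracted, 119 after repeated quantile normalization, 208 with trend and robust variances, 526 with array weights, 270 from 12 group means, 45 within pool 1, 0 within pool 2 and 2 without both KO pools at ZT20. With pool number as a block it was 215, of which 208 had no overlap at either time; these non-overlapping counts were 474 with array weights and 241 from 12 group means, and equal to the joint count in the first 5 settings. Leaving out 1 array gave 23 to 447 for both counts. The ZT20 count of 244 became 154 without the filter, 155 with 8 arrays, and 21 to 237 with 1 array left out. The ZT0 count of 4 became 0 without the filter, 1 with medians subtracted, 2 after quantile normalization, 1 with the block, and 0 to 2 with 1 array left out. The count between ZT20 and ZT0 ran from 0 to 3 in those fits. Against ZT4 to ZT16 the count of 2 became 8 at the 50th percentile, 7 after quantile normalization, 9 with trend and robust variances, 1 with array weights, 0 without both KO pools at ZT20, and 0 to 11 with 1 array left out. For fewer or more genes tested and fewer samples the construction itself changes the count; otherwise the cause was not tested.

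Sign changes were seen in 13 uncalled named genes. Repeated quantile normalization gave Ciart 0.0454, Rhobtb1 -0.00547 and Wee1 -0.0291, and array weights gave Wee1 -0.0327. Without both KO pools at ZT20 the values were Arntl -0.0741, Bhlhe41 0.0572, Hlf 0.0452, Nfil3 -0.127, Nr1d2 0.157, Per2 0.0715 and Rhobtb1 -0.0784. Within pool 1 they were Wee1 -0.148 and Ypel2 0.164, and within pool 2 Bhlhe41 0.111, Ciart 0.0268, Clock 0.00137, Per2 0.0593 and Rhobtb1 -0.0193. With 1 array left out the ranges were -0.0464 to 0.124 for Nfil3, -0.144 to 0.0806 for Ciart, -0.0134 to 0.0637 for Rhobtb1, -0.0744 to 0.143 for Wee1, -0.172 to 0.0439 for Bhlhe41, -0.0048 to 0.106 for Bhlhe40, -0.108 to 0.0159 for Arntl2 and -0.189 to 0.00963 for Ypel2. Dim probe sets and 2 pools a group limit what could be called.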
